A study of Mus musculus with 6 samples.

Results

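The mesothelium is the single-layered epithelium that covers the pancreas and other organs of the body cavity, and 10 genes commonly used to mark it were followed in control and Hox6 null mouse pancreas at E12.5 (embryonic day). The genes were Wt1, Msln, Upk3b, Upk1b, Lrrn4, Muc16, Bnc1, Gpm6a, Cldn15 and Nkain4. They were chosen by name, as mesothelial surface markers and transcription factors, with earlier results of these data known. Every probe set (a group of array probes read as 1 value) was used whose annotation gives the symbol of 1 of them alone. All 10 had at least 1 such probe set, and 15 of the 45037 probe sets tested belonged to them. Upk1b had 4, Upk3b and Gpm6a had 2 each, and the others had 1. The 10 genes stand among 18193 genes that had a probe set of their own.

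The series compared 3 control with 3 Hox6 null samples, each on 1 array. Both groups were whole dissected pancreas of Bl6 mice at E12.5. Controls were wild type, and the mutants carry the label Hox6 null, which as background refers to Hoxa6, Hoxb6 and Hoxc6, transcription factor genes of 1 paralogous group. The labels do not give the alleles, the part of each gene disrupted, the litters, or how many embryos went into a sample. Values are log2 expression levels, so that a difference of 1 is a 2-fold change, and they have meaning between the arrays of this set only.

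As background, mesothelial cells arise from the coelomic epithelium, carry apical junctions and surface glycoproteins, and in fetal organs also give rise to cells of the underlying mesenchyme. Wt1 encodes a zinc finger transcription factor of the coelomic lining, and Bnc1 encodes basonuclin, another zinc finger protein. Upk1b and Upk3b encode uroplakins, membrane proteins first described in bladder epithelium. Msln encodes mesothelin, and Muc16 encodes the large surface mucin that binds it. Lrrn4 encodes a leucine-rich repeat membrane protein, Gpm6a a tetraspan membrane glycoprotein that neurons also make, Cldn15 a claudin of tight junctions, and Nkain4 a membrane protein that interacts with the sodium pump.

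Array pairs correlated at 0.994 to 0.995 across probe sets among controls, at 0.980 to 0.987 among null arrays and at 0.979 to 0.990 between the groups. Null replicates 1 and 2 stood apart on the first principal component, which held 46.6% of the variance, while null replicate 3 lay next to the controls. Pdx1 and Ptf1a, transcription factor genes that define pancreatic progenitors, were read at 7.34 to 8.62 in controls and 7.50 to 9.97 in null arrays. The mean of 12 pancreatic epithelium genes was 8.89 to 9.07 in controls, 9.07 in null 3, 9.90 in null 2 and 10.10 in null 1. Hoxb6 read 8.78 to 9.36 in controls and 8.25 to 8.91 in null arrays, with overlap. Hoxc6 had positive differences in each of its 3 probe sets (0.13, 0.47 and 0.73), of which the last had every null array (4.59 to 5.38) above every control (3.91 to 4.25). A probe set outside the disrupted part checks nothing. Alb, the liver gene for albumin, read 10.60 in control 2 and 6.44 to 8.02 in the other arrays. In control 2 the 10 mesothelial genes lay between -0.27 and 0.30 of the control mean, 7 of them below it. Any part of liver tissue in their levels was not tested.

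Promoter sequences were set beside the genes because most of them were low together in the null arrays. The RefSeq table (GRCm38.p6) held 7 windows, from 250 bases before to 50 bases after a gene start, for 6 of the 10 genes: Upk3b, Lrrn4, Muc16, Bnc1, Cldn15 and Gpm6a, which has 2 starts. Wt1, Msln, Upk1b and Nkain4 had no entry. Windows were searched on both strands for GGAATG (bound by TEAD factors), GCGGGGGCG (bound by WT1 and EGR proteins), GCGTGGGNG (WT1), TGATTNAT (HOX with PBX) and TATAAA (the TATA box). The 250 bases before the start are printed 5′ to 3′ on the gene's own strand for the 4 genes with a GGAATG match and for Muc16, which had none, with matches in capitals (CATTCC is GGAATG on the other strand). They are Upk3b at chr5:136038246-136038495 (plus strand), Lrrn4 at chr2:132880863-132881112 (minus strand), Gpm6a at chr8:54779184-54779433 (plus strand), Cldn15 at chr5:136967619-136967868 (plus strand) and Muc16 at chr9:18674604-18674853 (minus strand).
Upk3b: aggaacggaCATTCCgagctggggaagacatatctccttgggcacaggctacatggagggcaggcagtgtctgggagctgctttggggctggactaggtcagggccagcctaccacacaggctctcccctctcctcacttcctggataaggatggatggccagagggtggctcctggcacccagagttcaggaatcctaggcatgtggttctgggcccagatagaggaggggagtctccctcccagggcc
Lrrn4: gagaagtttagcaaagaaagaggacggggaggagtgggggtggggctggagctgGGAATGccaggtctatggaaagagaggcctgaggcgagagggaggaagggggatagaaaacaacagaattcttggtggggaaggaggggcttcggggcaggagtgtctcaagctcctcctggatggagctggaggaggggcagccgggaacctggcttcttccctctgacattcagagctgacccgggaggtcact
Gpm6a: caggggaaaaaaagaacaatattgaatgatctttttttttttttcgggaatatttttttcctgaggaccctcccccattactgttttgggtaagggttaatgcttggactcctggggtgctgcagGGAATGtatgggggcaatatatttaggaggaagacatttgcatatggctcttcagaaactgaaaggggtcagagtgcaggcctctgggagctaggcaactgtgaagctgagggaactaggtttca
Cldn15: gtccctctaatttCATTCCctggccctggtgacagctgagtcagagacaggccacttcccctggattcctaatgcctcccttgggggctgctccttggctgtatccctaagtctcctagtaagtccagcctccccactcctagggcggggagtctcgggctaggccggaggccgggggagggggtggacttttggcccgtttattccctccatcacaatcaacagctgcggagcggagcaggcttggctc
Muc16: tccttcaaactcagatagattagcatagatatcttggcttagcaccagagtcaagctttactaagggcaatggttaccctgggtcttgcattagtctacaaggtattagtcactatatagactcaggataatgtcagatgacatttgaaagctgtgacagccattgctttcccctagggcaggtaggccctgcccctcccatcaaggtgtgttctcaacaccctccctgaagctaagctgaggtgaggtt

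GGAATG was present in 4 of the 7 windows, and in 14.7% of all 32851 windows of the table. In Upk3b it covered positions -241 to -236 from the start, in Lrrn4 -196 to -191, in Gpm6a -125 to -120 and in Cldn15 -237 to -232. Cldn15 had a further match from -1 to 5, which reaches past the printed stretch. The match was thus found in Upk3b, Lrrn4 and Gpm6a, whose null arrays lay below the controls, and in Cldn15, whose arrays overlapped. TATAAA occurred once, at -211 to -206 of the other Gpm6a start, and in 13.6% of all windows. GCGGGGGCG, GCGTGGGNG and TGATTNAT were in none of the 7 windows and in 2.91%, 1.90% and 3.22% of all windows. These are matches of letters in short windows and say nothing about binding.

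**Figure D1:**
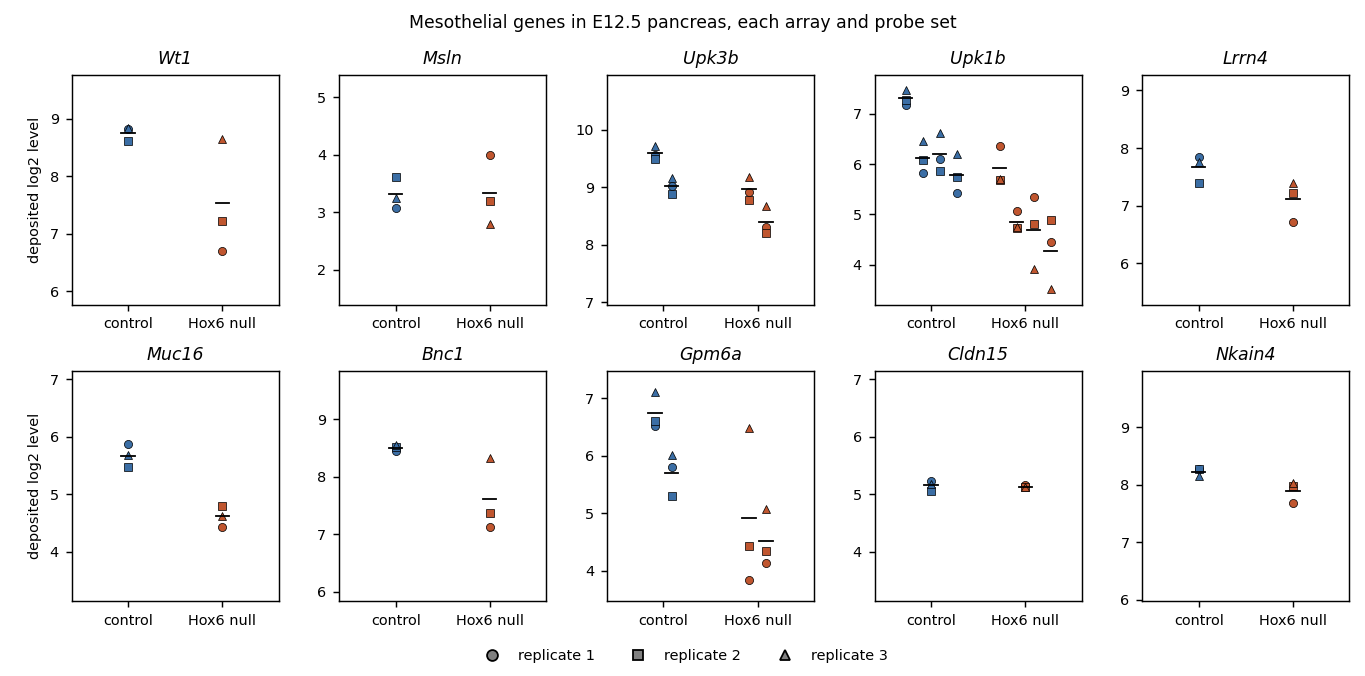
Deposited log2 level (vertical axis) of each mesothelial gene in 3 control (blue) and 3 Hox6 null (orange) arrays of E12.5 pancreas, with 1 column of points per probe set in each group, symbols for replicates and a bar at the mean; every panel spans at least 4 log2 units. Upk1b and Muc16 are low in all 3 null arrays, Wt1, Bnc1 and the first Gpm6a probe set are low in null 1 and 2 and near the controls in null 3, and Msln and Cldn15 overlap.

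The mesothelial genes were mostly lower in Hox6 null pancreas, although none passed the test over all probe sets. Of the 15 probe sets 14 had a negative difference of null minus control, against 42.7% of all probe sets. The median of the 15 was -1.06, beside 0.04 over all probe sets. In 12 of the 15 every null array lay below every control array, which was the case for 9.89% of all probe sets. In 0 of the 15 every null array lay above, against 12.1% of all probe sets. By gene, taking the probe set with the highest mean, 9 of 10 differences were negative, against 44.0% of all genes. In 7 of 10 all null arrays lay below all controls, against 11.7% of all genes. The median over the 10 genes was -0.76, beside 0.03 over all genes. The median by probe set counts Upk1b, Upk3b and Gpm6a more than 1 time. With limma and Benjamini-Hochberg adjustment over 45037 probe sets 0 of the 15 passed an adjusted p of 0.05, and 1 probe set in all did (0.00222%). The lowest adjusted p among the 15 was 0.116. Unadjusted, 13 of the 15 had a p under 0.05, all with null lower, against 6.79% of all probe sets. Adjusted over 18193 genes instead, 0 of the 10 passed, whereas 0.0715% of all genes did and 0.066% did with null lower. Unadjusted, 8 of the 10 had a p under 0.05 with null lower, against 7.77% of all genes. In whole tissue, fewer mesothelial cells and less of these RNAs per cell cannot be told apart. P-values measure the spread between samples that the labels name biological replicates.

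Null 3 set the number of calls. Without it 9 of the 15 probe sets passed (limma), all with null lower, where 2.20% of all probe sets passed with null lower and 4.22% in either direction. These 9 were the probe sets of Wt1, Upk3b (both), Bnc1, Muc16, Gpm6a (both) and 2 of the 4 of Upk1b. Leaving out any other single array gave 0 of 15. Null 1 and 2 were also left out together, a choice made after seeing the data, so that null 3 was the single null array. There 15 of 15 differences were negative, with a median of -0.41 beside 0.01 over all probe sets. A lone array shows no spread of its own, so only the size is given.

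**Figure D2:**
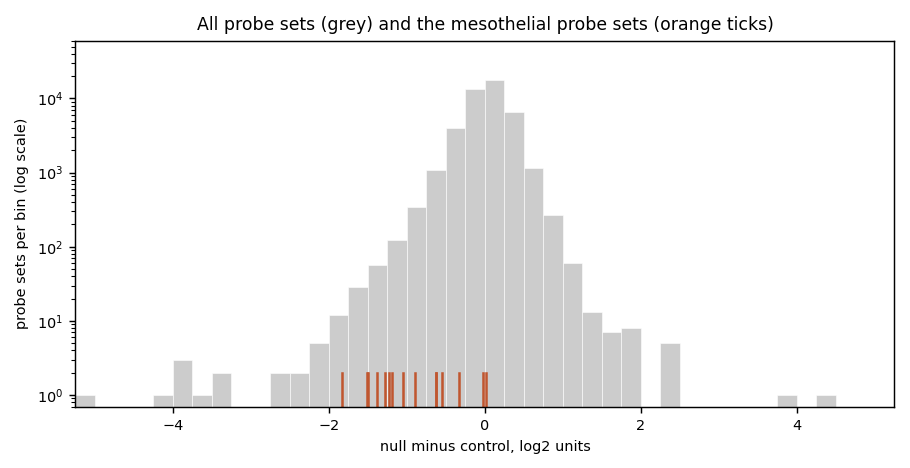
Number of probe sets (vertical axis, log scale) in bins of 0.25 log2 units of the difference null minus control (horizontal axis) over all 45037 probe sets, with an orange tick for each of the 15 mesothelial probe sets. The ticks run from -1.83 to 0.01, and 13 of the 15 lie left of the 2 highest bins, which meet at 0.

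Among the surface proteins, the uroplakin gene Upk1b was lower in all 3 null arrays. Its brightest probe set (1457065_at) read 7.18, 7.27 and 7.48 in controls 1 to 3 and 6.37, 5.68 and 5.71 in null 1 to 3. All null arrays lay below all controls, and null 1 was the highest of them. The means were 7.31 ± 0.15 and 5.92 ± 0.39 (SD, n = 3 each), a difference of -1.39 ± 0.20 (SE), or 2.62-fold lower, with an adjusted p of 0.117 over all probe sets and 0.0735 over all genes (limma). The next probe set (1435831_at) read 5.83, 6.08 and 6.46 in controls and 5.06, 4.72 and 4.75 in null arrays, a difference of -1.28 ± 0.18 (SE). The other probe sets, whose _x_at suffix marks probes that can also match other transcripts, differed by -1.50 ± 0.36 and -1.51 ± 0.35 (SE), and there null 3 was the lowest array, at 3.93 and 3.51, below 4.33, the gauge of background described with Msln. All 4 probe sets of Upk1b thus separated the groups without overlap, though they measure 1 gene and are not replicates of one another.

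Muc16, the mucin gene, had the smallest p among the 15 probe sets. It read 5.86, 5.47 and 5.68 in controls and 4.42, 4.79 and 4.63 in null arrays. The null arrays lay close together and all below the controls. They were just above the 4.33 taken as a gauge of background, so that the size of the difference is uncertain. The difference was -1.06 ± 0.15 (SE), 2.08-fold lower, with an adjusted p of 0.116 over all probe sets and 0.0711 over all genes (limma).

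Upk3b, the other uroplakin gene, had a smaller difference that its 2 probe sets shared. The brighter (1454881_s_at) read 9.56, 9.49 and 9.72 in controls and 8.92, 8.78 and 9.18 in null arrays. The groups did not overlap, and null 3 was the nearest to the controls. The differences were -0.63 ± 0.14 and -0.63 ± 0.15 (SE), each 1.55-fold lower, with adjusted p of 0.197 and 0.209 (limma over all probe sets).

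Of the transcription factor genes, Wt1 read 8.82, 8.61 and 8.84 in controls and 6.70, 7.22 and 8.65 in null arrays. Null 1 and 2 lay far below the controls, while null 3 lay within their range. The mean difference was -1.23 ± 0.44 (SE) (adjusted p = 0.284, limma over all probe sets). Without null 3 it was -1.80 ± 0.18 (SE), with an adjusted p of 0.0139 (limma).

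Bnc1, the basonuclin gene, followed the same order of arrays. It read 8.44, 8.51 and 8.55 in controls and 7.12, 7.37 and 8.32 in null arrays. All null arrays were below the controls, null 3 by a small margin. The difference was -0.90 ± 0.28 (SE) with an adjusted p of 0.257 (limma), and -1.25 ± 0.12 (SE) without null 3 (adjusted p = 0.0139, limma).

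Gpm6a had the lowest single difference of the 15 probe sets. The brighter probe set (1456741_s_at) read 6.53, 6.62 and 7.12 in controls and 3.84, 4.44 and 6.49 in null arrays. Null 1 and 2 were far below all other arrays, and null 3 was just below the lowest control. The difference was -1.83 ± 0.61 (SE) with an adjusted p of 0.267 (limma). Null 1 lay below and null 2 just above the 4.33 taken as a gauge of background, so that the size of this difference is uncertain. The other probe set (1426442_at) read 5.80, 5.30 and 6.02 in controls and 4.14, 4.34 and 5.08 in null arrays, a difference of -1.19 ± 0.28 (SE) with no overlap. The 2 probe sets therefore placed null 3 differently: 0.26 and 0.63 below the control mean.

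Lrrn4 and Nkain4, both membrane protein genes, had smaller differences. Lrrn4 read 7.84, 7.39 and 7.76 in controls and 6.72, 7.21 and 7.39 in null arrays. Null 1 was clearly low, and null 3 and control 2 were nearly equal, at 7.388 and 7.394. The difference was -0.56 ± 0.20 (SE) with an adjusted p of 0.286 (limma). Nkain4 read 8.28, 8.27 and 8.15 in controls and 7.69, 7.98 and 8.03 in null arrays, again without overlap and with null 1 lowest. Its difference was -0.33 ± 0.13 (SE) with an adjusted p of 0.301 (limma).

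Msln and Cldn15 did not separate the groups. Msln read 3.08, 3.62 and 3.26 in controls and 3.99, 3.20 and 2.81 in null arrays. These values lie below 4.33, the 95th percentile of the mean level of 44 probe sets for olfactory receptors, genes of the nasal epithelium used as a gauge of background, so that a change in mesothelin RNA could not have been seen well here. The difference was 0.01 ± 0.30 (SE), and its sign changed with the settings used. Cldn15 read 5.23, 5.05 and 5.18 in controls and 5.15, 5.12 and 5.12 in null arrays. The arrays overlapped within 0.18 log2 units, and the difference was -0.02 ± 0.10 (SE). Of the 15 probe sets, 14 exceeded the olfactory receptor level in their mean, and 7 were at or above the median of all probe set means.

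**Figure D3:**
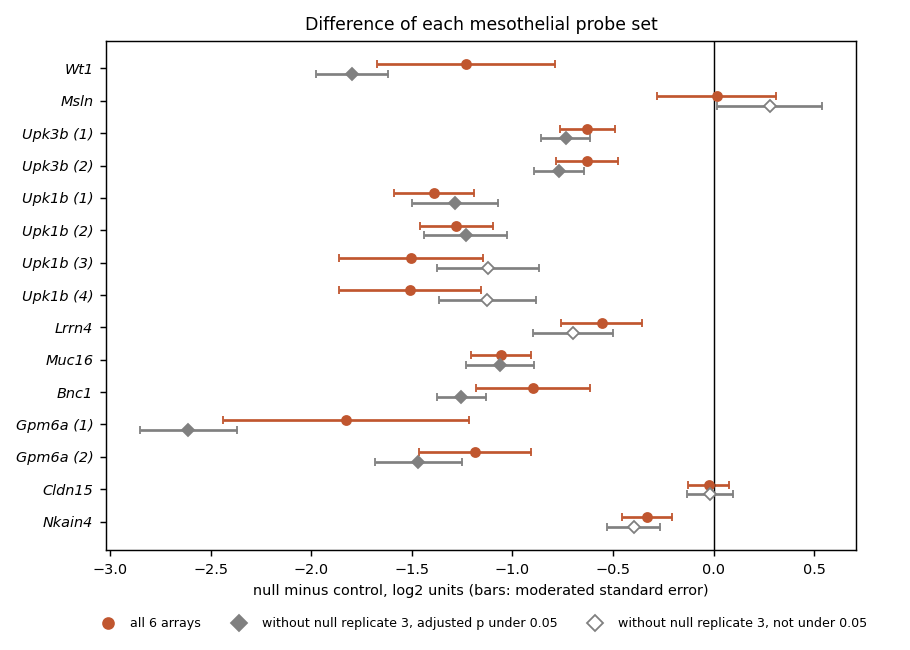
Difference null minus control in log2 units (horizontal axis) for each mesothelial probe set, numbered from the brightest where a gene has several, with all 6 arrays (orange circles) and without null replicate 3 (grey diamonds, filled where the adjusted p was under 0.05); bars are moderated standard errors. Without null 3 the estimates of Wt1, Bnc1 and Gpm6a move to the left, Upk1b moves to the right, Muc16 stays near -1.06, and 9 of 15 diamonds are filled.

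The genes thus differed in where null 3 stood, a description made after the values had been seen and not tested. Expressed as a share of the mean deviation of null 1 and 2 from the control mean, the deviation of null 3 was 5.82% for Wt1, 9.97% for the brighter Gpm6a probe set and 14.7% for Bnc1. It was 39.4% for Lrrn4, 42.7% for the other Gpm6a probe set, 50.2% for Nkain4 and 55.9% for the brighter Upk3b probe set. For Muc16 it was 98.3%, and for the brightest Upk1b probe set 124%. Wt1, Bnc1 and the brighter Gpm6a probe set were therefore near the control level in null 3. By contrast, Muc16, whose null values lay just above the gauge of background, and Upk1b were as low in null 3 as in the other null arrays. The same share was 10.6% for the pancreatic epithelium list (which was higher, not lower, in null arrays), 35.9% for mesenchyme, 65.1% for endothelium and 69.1% for leukocytes. For the spleen list it was 4.10%. That list holds Tlx1 and Nkx2-5, transcription factor genes of the spleen primordium, which grows beside the pancreas.

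**Figure D4:**
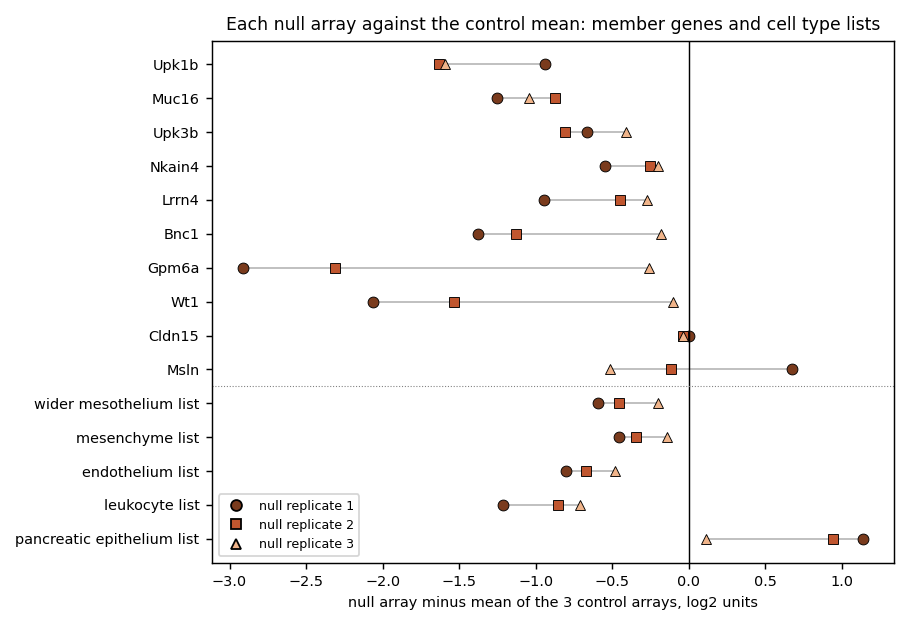
Level in each null array minus the mean of the 3 controls, in log2 units (horizontal axis), for the brightest probe set of each mesothelial gene and, under the dotted line, for the mean of 5 lists of cell type genes; symbols mark null replicates 1 to 3. Null 3 lies at -0.10 for Wt1 and -0.18 for Bnc1 but at -1.04 for Muc16 and -1.60 for Upk1b, and the epithelium list lies at 1.14, 0.94 and 0.11 in null 1 to 3.

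Markers of other cell types also differed between the groups, some higher and some lower in the null arrays. All 12 pancreatic epithelium genes had a positive difference, with a median of 0.65. Of 11 mesenchyme genes 10 were negative (median -0.23), of 8 endothelial genes 8 (median -0.65) and of 6 leukocyte genes 6 (median -0.93). Every null array lay below every control for 8 endothelial, 6 leukocyte and 6 mesenchyme genes, and for 7 of the 10 mesothelial genes. The share of all genes was 11.7%. The test over all genes (limma) called 2 endothelial and 1 leukocyte gene, all lower, and 0 mesothelial genes, beside 0.066% of all genes with null lower. Both spleen genes were lower on average, Tlx1 by a difference of -0.82 and Nkx2-5 of -0.96 with overlapping arrays, and their mean stood at -1.22, -1.39 and -0.05 from the control mean in null 1 to 3. With the mean epithelium level as a covariate in the fit, the median of the 15 probe sets went from -1.06 to -0.40. Under that fit Wt1 stood at 0.05 ± 0.24, Bnc1 at -0.07 ± 0.15 and the brighter Gpm6a probe set at 0.01 ± 0.24 (SE), while Muc16 stood at -1.04 ± 0.23 and the brightest Upk1b probe set at -1.67 ± 0.28 (SE). None of the 15 passed (limma, lowest adjusted p = 0.145), beside 0.00444% of all probe sets. An unadjusted p under 0.05 was reached by 5, and the share of all probe sets was not computed for it. The covariate comes from the same 6 arrays and stood at 1.14, 0.94 and 0.11 from the control mean in null 1 to 3. This fit therefore largely restates where null 3 stood for each gene, and cannot set tissue composition apart. The part of tissue composition in the differences was not tested.

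Relative to mesenchyme, the mean of the 10 mesothelial genes was also lower in the null arrays. The mean mesothelial level minus the mean mesenchyme level was -2.93, -2.93 and -2.89 in controls and -3.46, -3.48 and -3.23 in null arrays. The groups did not overlap, and the difference was -0.48. Against the endothelium list the same quantity was -1.86 to -1.73 in controls and -2.01 to -1.76 in null arrays, with overlap, and a difference of -0.14. Against the leukocyte list the difference was 0.13 and against the spleen list 0.09, again with overlap. These are means over listed genes, given without a test.

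Other genes known from mesothelium gave a mixed picture. Of 14 listed, 12 were measured (Crb2 and C3 were not analysed here), 10 were negative and 2 positive, and the median was -0.25. The test over all genes (limma) called none, beside 0.0715% of all genes. An unadjusted p under 0.05 was reached by 5, all lower, against 7.77% of all genes with null lower. In 4 the groups did not overlap and null was lower, against 11.7% of all genes. Rspo1, an R-spondin that enhances Wnt signalling, read 7.29, 7.47 and 7.76 in controls and 5.18, 5.48 and 6.81 in null arrays. All null arrays were lower, null 3 least. The difference was -1.68 ± 0.39 (SE) with an adjusted p of 0.166 over all genes (limma). Thbd, the thrombomodulin gene, which endothelium also makes, differed by -0.77 ± 0.12 (SE), Sulf1, a heparan sulfate 6-O-endosulfatase, by -0.94 ± 0.21 and the matrix protein gene Efemp1 by -0.66 ± 0.17. Their adjusted p were 0.0735, 0.158 and 0.174 over all genes (limma). The keratin genes Krt7 (0.07 ± 0.13, SE) and Krt19 (-0.20 ± 0.19) and the retinaldehyde dehydrogenase gene Aldh1a2 (0.11 ± 0.28) overlapped between the groups. The keratins are also made by pancreatic epithelium and Aldh1a2 also by mesenchyme.

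Relatives of the mesothelial genes went in both directions. Of 13 measured family members 10 had a positive and 3 a negative difference, and the median was 0.10. The test over all genes called none of them (limma), beside 0.0715% of all genes. An unadjusted p under 0.05 was reached by 5, of which 2 were lower. Of all 18193 genes 2901 reached it, 1413 of them lower. The uroplakin gene Upk1a read 5.02, 4.76 and 5.08 in controls and 5.78, 5.93 and 5.37 in null arrays. Its null arrays were all higher, by 0.74 ± 0.17 (SE; adjusted p = 0.158 over all genes, limma), opposite to Upk1b. The mucin gene Muc1, of epithelial surfaces, differed by 0.84 ± 0.29 (SE) and the claudin gene Cldn10 by 1.06 ± 0.37. Nkain2 differed by -1.06 ± 0.33 and Lrrn3 by -0.27 ± 0.22, with overlapping arrays. Bnc2, the other basonuclin gene, read 9.94, 10.06 and 10.00 in controls and 9.03, 9.61 and 9.88 in null arrays. All its null arrays were lower, null 3 least, the order seen for Bnc1, with a difference of -0.50 ± 0.21 (SE; adjusted p = 0.290 over all genes, limma). Upk2 and Upk3a, the remaining uroplakin genes, differed by 0.004 and 0.44, both with overlap.

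Wt1 is also a gene of the urogenital ridge, and Gpm6a is also neuronal, so markers of both were read. Of 8 urogenital ridge genes measured, 3 were negative and 5 positive, with list means of 6.05 to 6.29 in controls and 6.07 to 6.51 in null arrays. Nr5a1, a defining gene of the gonad and adrenal primordium, read 4.38 to 4.98 over all arrays. Lhx9, a LIM homeobox gene of that list, read 9.23, 8.96 and 9.41 in controls and 6.88, 7.93 and 9.31 in null arrays. Its null 1 and 2 were low and null 3 within the control range, the order seen for Wt1. The difference was -1.16 ± 0.53 (SE; adjusted p = 0.326 over all genes, limma). Emx2 and Osr1 had every null array below every control, with differences of -0.98 ± 0.37 and -0.47 ± 0.17 (SE). Pax8 and Lhx1 had every null array above every control, with differences of 1.05 ± 0.30 and 0.76 ± 0.24 (SE). Their mean levels, 4.31 and 4.19, lay below the gauge of background. The remaining genes of the list overlapped. Of 5 neuron and glia genes measured, 4 were positive and 1 negative, with list means of 6.35 to 6.57 in controls and 6.56 to 7.14 in null arrays. The negative one, Stmn2, a gene of growing axons, read 8.48, 8.08 and 7.39 in controls and 7.23, 6.97 and 7.91 in null arrays. Its null 1 and 2 were the lowest arrays, as for the brighter Gpm6a probe set. Null 3 lay within the control range for Stmn2 but just below it for that Gpm6a probe set. The part of these cell types in the levels of Wt1 and Gpm6a was not tested.

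The genes with the pattern most like the mean of the 10 mesothelial genes came from several cell types. Likeness was the root mean square distance over the 6 arrays between a gene's deviation from its own mean and the mean deviation of the 10 genes, among 10889 genes at or above the median level. Left out of these were the 10 genes themselves and the sex-linked gene Xist. The median distance was 0.43 log2 units. The nearest gene was Wwtr1, at 0.05, which encodes TAZ, a transcriptional co-activator that works with TEAD factors. It read 9.14, 9.04 and 9.09 in controls and 8.08, 8.12 and 8.68 in null arrays. All null arrays were below the controls, null 3 least, with a difference of -0.80 ± 0.17 (SE; adjusted p = 0.153 over all genes, limma). Next came Emcn, an endothelial sialomucin gene (0.06), C1qc, a complement gene of macrophages (0.07), Gja5, a connexin gene of arteries (0.07), and Irs1, an insulin receptor substrate gene (0.08). The mesothelial genes themselves lay at 0.12 (Upk3b) to 0.83 (Gpm6a) from their own mean.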

How the data were processed

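Total RNA of whole E12.5 mouse pancreas was amplified from 10 ng with a NuGEN WT-Pico Ovation kit and end-labelled, per the labels' protocols, and read on arrays. The deposited table gives log2 levels, 1 for each probe set and array. RMA, affy and limma are the tools in the submitters' processing notes, with no versions. RMA subtracts background, equalises the distributions of the arrays and summarises the probes of a set, so that differences of dim probe sets come out too small. With 3 arrays per group the precision is limited by their number. No genome build of the arrays is given in the sources used here.

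The 10 genes, all lists and the covariate were chosen with earlier results of these data known. Of 45101 table rows 64 array controls were left out. Symbols came from the platform annotation, in which 34945 probe sets had 1 symbol, 932 several and 9160 none. Genotype was fitted as the single term with limma 3.58.1 (lmFit and eBayes, R 4.3.3) on the deposited values, two-sided, with Benjamini-Hochberg adjustment over 45037 probe sets and a threshold of 0.05. Results given over all genes used the probe set with the highest mean for each of 18193 genes. Standard errors come from the fit over all probe sets throughout. An exact permutation test of 3 against 3 cannot go below 0.1. The fit was run on simulated data with known changes in probe sets at or above the median level. Both groups were given the same spread there. The run therefore says nothing about dimmer probe sets or about an array that stands apart as null 3 did. Named beyond the 10 genes were the 4 genes of smallest p in the wider mesothelium and family lists, the 5 nearest in pattern and markers needed beside a result. Krt7, Krt19, Aldh1a2, Upk2, Upk3a, Bnc2, Lrrn3, Stmn2, Lhx9, Emx2, Osr1, Pax8 and Lhx1 were named after their values were seen. Array pairs shared 53 to 166 identical values, far from the number a duplicated array would give. Promoter windows came from RefSeq (GRCm38.p6) and were searched in Python 3.11.15. Alternatives changed the filter, the normalization, the variance prior, array weights, the replicate block, the probe set choice, the covariate and the arrays used.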

Additional observations from a re-analysis of the deposited data

How the results depend on the processing

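The median difference of the 15 probe sets was negative under every alternative run. It was -1.06 as reported, and moved to -0.63 over the 7 probe sets at or above the median level, to -0.40 with the epithelial level as a covariate, and to -0.41 without null replicates 1 and 2 together, a setting chosen after seeing the data. With 1 probe set per gene the median of the 10 genes was -0.76. Leaving out 1 array at a time gave -1.16 to -0.82. Changing the variance prior or adding the replicate block leaves every difference unchanged. The filter and the probe set choice only select among the same differences. The negative sign under these settings therefore adds nothing. The number past the threshold (limma), 0 as reported, was 1 (Upk1b, adjusted p = 0.0436) with an intensity trend and robust prior, where 0.124% of all probe sets passed with null lower, and 0 to 9 when 1 array was left out, the 9 without null 3. The number without overlap and with null lower, 12 of 15 as reported, was 6 of 7 with the filter (15.2% of all probe sets kept), 7 of 10 with 1 probe set per gene (11.7% of all genes), 11 with repeated quantile normalization (10.4%) and 11 with median centring (10.1%). It was 12 to 14 when 1 array was left out, where 12.6% to 18.6% of all probe sets did not overlap in that direction, against 9.89% as reported.

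Of 212 values of single probe sets under alternatives, 193 kept sign and side of the threshold, 10 newly passed it, and 9 changed sign. The settings that leave the differences unchanged could not change a sign. With the covariate Wt1 turned to 0.0537 and the brighter Gpm6a probe set to 0.00606. Msln turned to -0.11 with repeated quantile normalization, -0.60 with the covariate, -0.51 without null 1 and 2, and ranged from -0.31 to 0.28 when 1 array was left out. Cldn15 ranged from -0.0758 to 0.0155 when 1 array was left out. The cause of these changes was not tested. The labels state no pairing of the samples by replicate number. Deviations of same-numbered arrays correlated at 0.14, 0.00487 and 0.06. The best match of control 1 was null 1, and that of controls 2 and 3 was null 3. With 3 arrays per group such correlations can neither show nor exclude a pairing. With the replicate block the count past the threshold was 0 and the lowest adjusted p 0.200 (limma). The median stayed at -1.06, which the block cannot change.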
